A study of Mus musculus with 4 samples.

Results

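The comparison described here asks what differed in mouse pancreatic tumours when an antibody to leukemia inhibitory factor (LIF) was given together with anti-PD-1. It sets the single-cell library of tumours given both antibodies (combo) against the library of tumours given anti-PD-1 with IgG. A barcode was taken as a cell if it held 200 genes or more and no more than 20% of its UMIs (unique molecular identifiers, counted molecules) came from mitochondrial genes. This gave 14392 anti-PD-1 cells and 16397 combo cells, 30789 of the 63443 such cells in the 4 libraries of the study. Female C57BL/6 mice aged 6 to 7 weeks carried subcutaneous tumours of Pan02, a murine pancreatic ductal cancer line, implanted in Matrigel at the right flank, away from the pancreas. Treatment began at about 50 mm3. The anti-PD-1 group had 200 µg of anti-PD-1 (clone RMP1-14) and 25 mg/kg IgG by the intraperitoneal route, 3 times a week until the endpoint. The combo group had the same anti-PD-1 dose with 25 mg/kg of a monoclonal anti-LIF antibody in place of IgG. The 2 other libraries, control (IgG) and anti-LIF, had no anti-PD-1 and served as a second pair with and without anti-LIF. Each library combined 3 samples that cannot be told apart in the files.

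LIF is a cytokine of the interleukin-6 family. It binds LIFR together with gp130 (encoded by Il6st) and signals through JAK kinases to STAT3. In pancreatic tumours it is known as a product of both cancer cells and activated stellate cells or fibroblasts, and as an autocrine and paracrine signal to cancer cells and myeloid cells. PD-1 (encoded by Pdcd1) is an inhibitory receptor of activated T cells, and its ligand PD-L1 (Cd274) is induced by interferon gamma on cancer and myeloid cells.

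With 1 library on each side no difference between treatments could be tested. Levels below are CPM, the counts per 1e+06 UMIs when all cells of a class are pooled, and a ratio is the log2 of combo over anti-PD-1 with its 95% interval for counting error only. A gene was counted as higher or lower when the 2 libraries differed at least 2-fold, held at least 50 UMIs together and had an interval that left out 0. The libraries held 67503066 UMIs (anti-PD-1, a median of 1731 per kept cell) and 94984486 UMIs (combo, 2288), and 269 kept barcodes occurred in both. Classes were named from marker genes of clusters and carry the ending -like. The labels name the Pan02 cancer cell as the cell type, but most cells of both libraries were host cells. In the cancer cell-like class Xist, the X-inactivation transcript of the female host, was at 2.43 and 3.46 CPM, against 113 and 152 CPM in the fibroblast-like class. Low Xist was part of the rule that named the cancer cell-like class, so these values are no separate check of it. Over all libraries cluster 0 of the class had 13.4 CPM of Xist, and clusters 2, 4 and 12 had 1.38, 1.54 and 1.81 CPM. Across the 8 classes examined, 21 genes that were low in both the control and the combo library were at least 2-fold lower in combo in 5 or more classes. Examples are Cct7, a chaperonin subunit (140.1 CPM in anti-PD-1, 45.4 in combo, 40.8 in control and 165 in anti-LIF over all cells), and Rpl28, a ribosomal protein (859.6 CPM in anti-PD-1, 308 in combo, 449 in control and 799.6 in anti-LIF). The labels do not say which of the 2 sequencing instruments read which library, so treatment and instrument cannot be told apart for these genes. Low in control was judged against anti-LIF, and not all 21 were alike. Hba-a1 and Hbb-bs were highest in erythroid-like cluster 37 (32 cells in anti-PD-1, 3 in combo). S100a9 was highest in neutrophil-like cluster 32 (192 and 13 cells). It was 1327 CPM in anti-PD-1, 156 in combo, 132 in control and 208 in anti-LIF, so anti-PD-1 alone was high. Salivary gland genes of a cluster of 176 cells that was found in the combo library alone (cluster 35) also had UMIs in other combo classes, and the haemoglobin genes that could be measured were lower in combo in 6 of the 8 classes. Both are given below beside the classes they touch. Erythrocytes were removed before capture, and the labels give dead cell and debris removal as optional, without saying for which library.

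Fibroblast-like and endothelial-like cells made up a larger share of the combo library. Fibroblast-like cells were 8.67% of the anti-PD-1 cells (interval 8.22% to 9.14%) and 21.7% of the combo cells (21.1% to 22.3%), a 2.50-fold difference (log2 ratio 1.32, interval 1.23 to 1.42; 1248.0 and 3557.0 cells). Endothelial-like cells were 3.30% of the anti-PD-1 cells (interval 3.01% to 3.61%) and 7.91% of the combo cells (7.501% to 8.33%), 2.40-fold more (log2 ratio 1.26, interval 1.11 to 1.42; 475.0 and 1297.0 cells). The pair without anti-PD-1 had the same order, with fibroblast-like cells at 6.43% in control and 22.3% in anti-LIF and endothelial-like cells at 1.63% in control and 7.41% in anti-LIF. Cancer cell-like cells were fewer, 29.9% of the anti-PD-1 cells (interval 29.2% to 30.7%) and 18.2% of the combo cells (17.6% to 18.8%) (log2 ratio -0.72, interval -0.78 to -0.65; 4306.0 and 2986.0 cells). Neutrophil-like cells were 5.18% of the anti-PD-1 cells (interval 4.83% to 5.56%) and 2.13% of the combo cells (1.91% to 2.36%) (log2 ratio -1.28, interval -1.47 to -1.099; 746.0 and 349.0 cells). T cell-like cells were 12.1% of the anti-PD-1 cells (interval 11.6% to 12.6%) and 9.28% of the combo cells (8.84% to 9.74%) (log2 ratio -0.38, interval -0.48 to -0.28). The macrophage and monocyte-like class was 30.6% of the anti-PD-1 cells (interval 29.9% to 31.4%) and 28.1% of the combo cells (27.4% to 28.8%) (log2 ratio -0.12, interval -0.18 to -0.06), close to level, while it was 2.87% in control and 32.1% in anti-LIF. Dendritic cell-like cells stood at 2.06% and 2.48% (log2 ratio 0.26, interval 0.04 to 0.48). NK cell-like cells stood at 1.098% and 0.970% (log2 ratio -0.18, interval -0.51 to 0.15). Among the named leukocyte classes alone (7581 and 7340 cells), macrophage and monocyte-like cells were 58.1% and 62.8%, T cell-like cells 22.97% and 20.7%, and neutrophil-like cells 9.84% and 4.75%. The shares of a library add up to all of its cells, so a larger share of 1 class lowers the others.

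**Figure D1:**
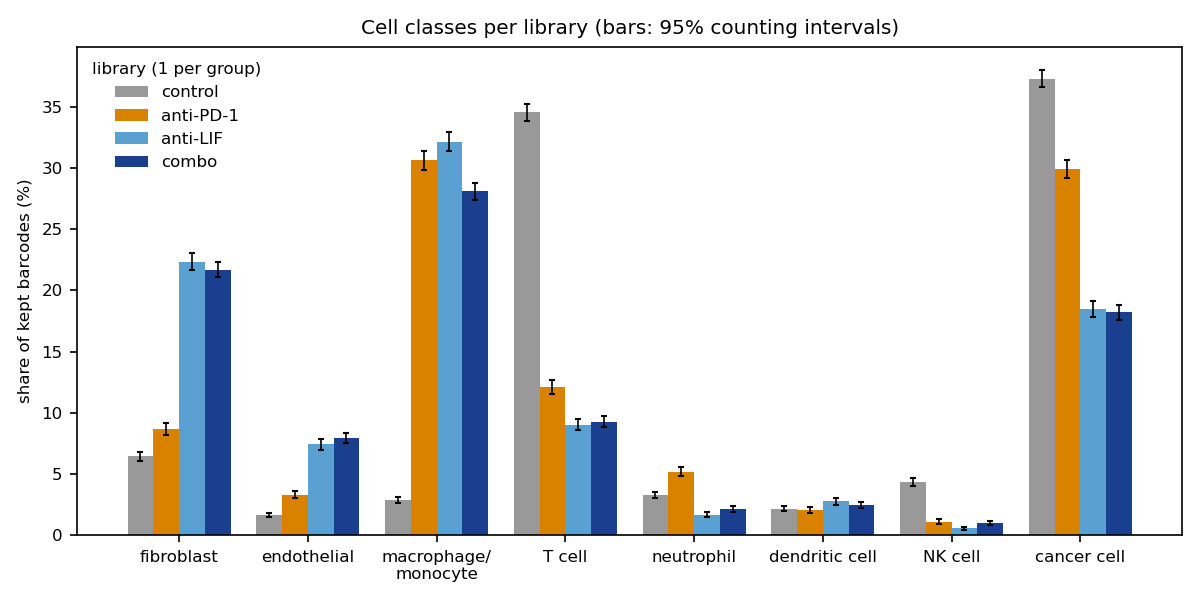
Share of kept barcodes (%) in each of 8 named classes for the 4 libraries, with exact 95% binomial intervals that cover counting error only. The fibroblast-like and endothelial-like shares of the combo library (21.7% and 7.91%) lie above those of the anti-PD-1 library (8.67% and 3.30%), and the cancer cell-like and neutrophil-like shares lie below.

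Sub-clusters within the classes shifted as well. These were found on the 1500 most variable genes of each class, so their sizes and the gene levels that define them are 1 description and not independent of each other. Among fibroblast-like cells, a sub-cluster led by Car3, Cxcl13, Adipoq and Col6a5, left unnamed because Adipoq, Cfd and Plin1 are adipocyte genes, was 3.04% of the class in anti-PD-1 and 13.9% in combo (log2 ratio 2.17, interval 1.71 to 2.70). A matrix-making fibroblast-like sub-cluster led by Mmp13, Ibsp and Bglap went the other way, 30.7% and 17.9% (log2 ratio -0.78, interval -0.97 to -0.59), whereas a sub-cluster led by Gzme, Gzmd and Actg2, left unnamed because granzymes are genes of lymphocytes, was 5.85% and 13.04% (log2 ratio 1.15, interval 0.80 to 1.53). Of the adventitial fibroblast-like sub-clusters, the larger was level at 11.9% and 12.8% and the smaller, led by Mrgprg, Cxcl13 and Ackr2, was 3.45% and 7.06% (log2 ratio 1.02, interval 0.56 to 1.54). The inflammatory fibroblast-like sub-cluster was 7.37% and 5.59% (log2 ratio -0.40, interval -0.76 to -0.03). In the endothelial-like class, pericyte-like cells, the contractile cells that wrap small vessels, were 3.58% and 14.2% (log2 ratio 1.95, interval 1.27 to 2.80). An unnamed sub-cluster led by haemoglobin and the capillary genes Timp4, Lpl, Fmo2 and Aqp7 was 3.58% and 18.9% (log2 ratio 2.36, interval 1.69 to 3.20). Sprouting endothelial-like cells were 7.37% and 4.55% (log2 ratio -0.70, interval -1.32 to -0.05), and arterial-like cells 3.58% and 5.86% (log2 ratio 0.68, interval -0.06 to 1.56), an interval that includes 0.

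The macrophage and monocyte-like class had a similar share in both libraries but a different make-up. Resident macrophage-like cells, led by Cd209f, Vsig4 and Lyve1, were 3.65% of the class in anti-PD-1 and 12.1% in combo (log2 ratio 1.72, interval 1.47 to 1.99). An unnamed sub-cluster led by Mmp12, Gpnmb, Chil3 and Fabp4 was 1.79% and 9.65% (log2 ratio 2.42, interval 2.08 to 2.79), and another led by Mucl1, Retnla and Ear2 was 0.953% and 8.55% (log2 ratio 3.15, interval 2.70 to 3.66). A sub-cluster led by Cxcl9, Xcr1 and Tlr12, unnamed because Xcr1 and Cadm1 among its leading genes are genes of type 1 dendritic cells, was 19.96% and 9.05% (log2 ratio -1.14, interval -1.31 to -0.97). Monocyte-like cells led by Cd177 were 9.10% and 5.90% (log2 ratio -0.62, interval -0.85 to -0.40), and monocyte-like cells led by Ifit genes were level at 2.40% and 2.36%. An unnamed sub-cluster with cancer genes (Igf2, Msln, Bmp4) was 7.15% and 2.08% (log2 ratio -1.77, interval -2.12 to -1.44). Among T cell-like cells, Treg-like cells, the Foxp3-bearing suppressive CD4 T cells, were 13.04% and 24.4% (log2 ratio 0.90, interval 0.66 to 1.15), which is 227 and 371 cells. CD8 T cell-like cells led by Itga1 and Slamf7 were 30.3% and 19.7% (log2 ratio -0.62, interval -0.83 to -0.41), and those led by Gzmf 9.36% and 2.83% (log2 ratio -1.72, interval -2.25 to -1.24). Gamma delta T cell-like cells with Il17a were 4.48% and 7.82% (log2 ratio 0.80, interval 0.38 to 1.23). Conventional CD4 T cell-like cells with Il5 and Il13, the type 2 cytokines, were 8 cells in anti-PD-1 and 45 in combo. An unnamed sub-cluster led by haemoglobin, Dapl1, Tnfsf8 and Ramp3 was 5.17% and 20.04% (log2 ratio 1.95, interval 1.61 to 2.31).

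**Figure D2:**
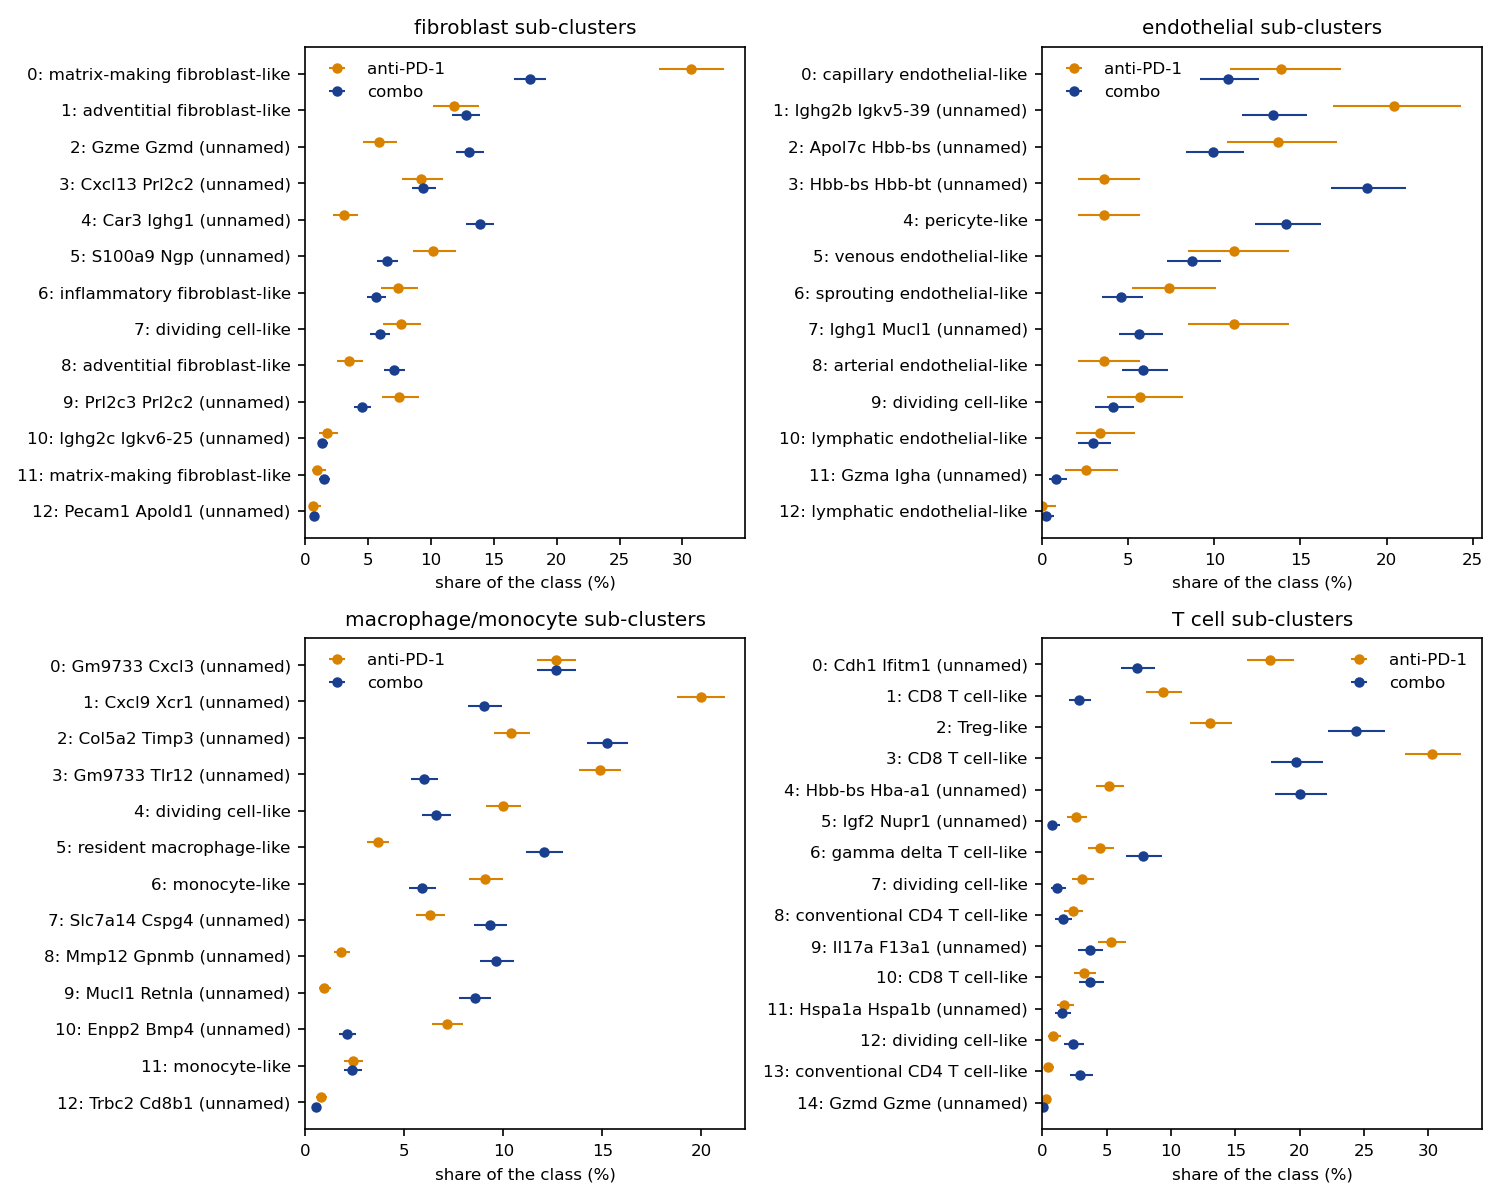
Sub-clusters of the fibroblast, endothelial, macrophage and monocyte, and T cell-like classes as a percent of their class in the anti-PD-1 and combo libraries, with exact 95% binomial intervals; unnamed ones carry their leading genes. The Treg-like sub-cluster lies at 24.4% in combo and 13.04% in anti-PD-1, and the one led by Cxcl9 and Xcr1 at 9.05% and 19.96%.

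In fibroblast-like cells the clearest list was that of adventitial genes, which mark the collagen-rich sheath around vessels and fascia. Its median log2 ratio was 0.74, with 6 of 18 measured members higher and 0 lower. The median was 0.37 when sub-clusters led by marker genes of another class were left out. Over all 11872 genes measured in the class the median was -0.02, 313 genes (2.64%) were higher and 250 (2.11%) lower. Gsn, the actin-severing protein gelsolin, was 1585 CPM in anti-PD-1 and 4741 CPM in combo (log2 ratio 1.58, interval 1.55 to 1.61). It was 2000.4 CPM in control and 2139 CPM in anti-LIF, so combo stood above the 3 other libraries. Efemp1, a fibulin of elastic matrix, was 158 CPM in anti-PD-1 and 584 CPM in combo (log2 ratio 1.88, interval 1.79 to 1.98), and Dpp4, a surface peptidase of adventitial progenitors, 25.3 CPM in anti-PD-1 and 82.1 CPM in combo (log2 ratio 1.69, interval 1.46 to 1.94). For these genes the anti-PD-1 library was the low one of the 4, since Efemp1 was 499.5 CPM in control and 384 CPM in anti-LIF and Dpp4 65.8 CPM in control and 61.7 CPM in anti-LIF. Col15a1, a basement membrane collagen, was 276 CPM in anti-PD-1 and 687 CPM in combo (1.31) and followed anti-LIF in both pairs (263 CPM in control and 633 CPM in anti-LIF). Pi16 (1.30) and Ly6c1 (1.01) were the other members past 2-fold. The lowest members were Smoc2 (-0.34) and Pdgfra (-0.21), the receptor that marks fibroblasts in general. In anti-LIF over control the list's median was -0.10. The list's median was also above 0 inside sub-clusters, at 0.53 in the larger adventitial fibroblast-like one, 0.66 in the inflammatory one, 0.31 in the Mmp13 one and 0.14 in the Actg2 one.

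The inflammatory fibroblast list split, with 4 of 23 measured members higher and 4 lower and a median of 0.04. C3 and C4b, both of the complement system, were among the higher members. C3, the central complement protein, was 2408 CPM in anti-PD-1 and 5837 CPM in combo (log2 ratio 1.28, interval 1.25 to 1.30), and C4b of the classical pathway 665 CPM in anti-PD-1 and 1781 CPM in combo (log2 ratio 1.42, interval 1.38 to 1.47). Has1, a hyaluronan synthase (316 CPM in anti-PD-1 and 656 CPM in combo, 1.05), and Ccl11, the eosinophil attractant eotaxin (175 CPM in anti-PD-1 and 354 CPM in combo, 1.02), were higher too. For C3, C4b and Has1 the anti-PD-1 library was again the lowest of the 4. Of the 4 lower members, 3 were acute phase or neutrophil-attracting genes. Cxcl5, a neutrophil chemokine, was 148 CPM in anti-PD-1 and 14.9 CPM in combo (log2 ratio -3.31, interval -3.49 to -3.14) and 29.9 CPM in control and 24.2 CPM in anti-LIF, so anti-PD-1 alone was high. Saa3, an acute phase lipid carrier, was 232 CPM in anti-PD-1 and 61.6 CPM in combo (log2 ratio -1.92, interval -2.02 to -1.81) and 120.0 CPM in control and 106 CPM in anti-LIF. Hp, which binds free haemoglobin, was 29.99 CPM in anti-PD-1 and 9.86 CPM in combo (-1.61). In the inflammatory fibroblast-like sub-cluster alone Cxcl5 was lower as well (448 and 31.3 CPM, -3.83). Cfd, an adipocyte and fibroblast complement factor, counted as lower, but 335 UMIs of it lay in 5 cells, and with a limit of 10% mitochondrial UMIs its ratio was 6.41. Il6 itself was 290.3 CPM in anti-PD-1 and 485 CPM in combo (log2 ratio 0.74, interval 0.67 to 0.81), under 2-fold.

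Part of these ratios moved with the mix of sub-clusters. Without the sub-clusters led by marker genes of another class, which left 846 of 1248 anti-PD-1 cells and 2267 of 3557 combo cells, C3 was at 0.61, Has1 at 0.50, Ccl11 at 0.45, Ly6c1 at 0.56, C4b at 0.91 and Pi16 at 0.94, all under 2-fold. Gsn (1.06), Efemp1 (1.30), Dpp4 (1.29), Col15a1 (1.38) and Cxcl5 (-3.92) stayed past it. The unnamed sub-cluster led by Gzme, Gzmd and Actg2 (5.85% and 13.04% of the class) was not among those left out. Cluster 13, led by Ptx3, Mmp3 and Cxcl12, held 7.13% and 24.4% of the class in anti-PD-1 and combo. The class's median UMIs per cell were also unequal, 2008 in anti-PD-1 and 3483 in combo.

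The extracellular matrix and contractile lists did not shift as lists. Matrix-making genes had 0 of 25 measured members higher and 2 lower (median -0.09), contractile genes 0 of 10 measured members higher and 0 lower (0.06), and matrix proteases and inhibitors 1 of 20 measured members higher and 0 lower (0.17). The 2 lower matrix genes were Bgn, the proteoglycan biglycan (6920.0 CPM in anti-PD-1 and 3400.0 CPM in combo, log2 ratio -1.03, interval -1.04 to -1.01), and Tgfbi, a TGF-beta-induced adhesion protein (343 CPM in anti-PD-1 and 166 CPM in combo, -1.04). Bgn was 2792 CPM in control and 6946 CPM in anti-LIF, so the anti-PD-1 and anti-LIF libraries were high and the control and combo libraries low. Without the sub-clusters led by marker genes of another class the ratio of Bgn was -0.85. Fn1 (0.42), the matrix glycoprotein fibronectin, and Lum (0.47), the proteoglycan lumican, were the highest members. Mmp12, a macrophage elastase, was the protease past 2-fold (2.08 CPM in anti-PD-1 and 4.83 CPM in combo, 1.16). It was also higher in macrophage and monocyte-like cells, and the summed level of macrophage markers in fibroblast-like cells was 499 and 311 CPM with 1 of 10 markers lower.

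Ranked over all genes by the interval bound nearest 0, the 12 highest genes of fibroblast-like cells were BC037156, Smpd3, Serpina3c, Akr1c18, Zbtb16, Lgi1, Agt, Col6a5, Ackr2, Opcml, Edn1 and Aox3. Smpd3, a neutral sphingomyelinase, was 4.33 CPM in anti-PD-1 and 52.2 CPM in combo (log2 ratio 3.57, interval 3.04 to 4.20). Agt, the precursor of angiotensin, was 1.12 CPM in anti-PD-1 and 12.4 CPM in combo (log2 ratio 3.37, interval 2.41 to 4.79), and Ackr2, a scavenger of CC chemokines, 0.802 CPM in anti-PD-1 and 9.29 CPM in combo (log2 ratio 3.40, interval 2.29 to 5.17). Edn1, the vasoconstrictor endothelin, was 4.33 CPM in anti-PD-1 and 27.1 CPM in combo (log2 ratio 2.62, interval 2.09 to 3.26), Zbtb16, a transcription factor induced by glucocorticoid, 0.641 CPM in anti-PD-1 and 10.3 CPM in combo (3.83), and Akr1c18, a progesterone-metabolising enzyme, 2.08 CPM in anti-PD-1 and 23.3 CPM in combo (3.43). Edn1 and Akr1c18 were low in the anti-PD-1 library alone (20.5 CPM in control and 20.6 CPM in anti-LIF for Edn1, 14.3 CPM in control and 21.4 CPM in anti-LIF for Akr1c18). Smpd3 was highest in combo (13.7 CPM in control and 10.7 CPM in anti-LIF). Lgi1 had no UMI in the anti-PD-1 class and was at least 7.15-fold higher in combo, taking 3 counts as the floor of a library. BC037156, also without a UMI there, is a leading gene of the salivary cluster. The 12 lowest were Moxd1, Ccdc107, Cct7, Jmjd6, A2m, Aqp5, Col24a1, Megf6, Dbp, Cpxm2, Men1 and Psmd13. Moxd1, a monooxygenase-like protein, was 259 CPM in anti-PD-1 and 44.8 CPM in combo (log2 ratio -2.53, interval -2.64 to -2.42) and lower in anti-LIF too (208 CPM in control and 89.0 CPM in anti-LIF). A2m, a protease inhibitor of plasma, was 39.1 CPM in anti-PD-1 and 11.99 CPM in combo (-1.71), with 45.0 CPM in control and 17.3 CPM in anti-LIF. Dbp, a circadian transcription factor, was 34.6 CPM in anti-PD-1 and 12.1 CPM in combo (-1.52). Ccdc107, Cct7, Jmjd6 and Men1 belong to the 21 genes low in both the control and combo libraries.

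For the pathway of the targeted cytokine, STAT3 target and feedback genes had 2 of 22 measured members higher and 4 lower in fibroblast-like cells, with a median of 0.23 (0.06 in anti-LIF over control). Cish, a STAT-induced feedback inhibitor of cytokine receptors, was 23.6 CPM in anti-PD-1 and 63.8 CPM in combo (log2 ratio 1.43, interval 1.19 to 1.69), and Icam1, an adhesion molecule, 101 CPM in anti-PD-1 and 226 CPM in combo (1.16, but 0.69 without the sub-clusters of another class). Saa3, Hp, Lcn2 (-1.14), which binds bacterial iron carriers, and Il4ra (-1.04), a receptor for interleukin-4, were lower. Hp, Lcn2 and Il4ra were under 2-fold when cells were thinned to 1000 UMIs (-0.85, -0.69 and -0.78). Socs3, the feedback inhibitor of gp130, was 359 CPM in anti-PD-1 and 529.7 CPM in combo (0.56). The window from 250 bases before to 50 bases after the Cish transcription start (RefSeq, GRCm38.p6, chr9:107296409-107296708, plus strand) holds the STAT-type motif TTCNNNGAA at bases 1 and 12 downstream, counting the start as base 1, in capitals, and is printed because Cish was the STAT3 list's highest member in this class:
Cish: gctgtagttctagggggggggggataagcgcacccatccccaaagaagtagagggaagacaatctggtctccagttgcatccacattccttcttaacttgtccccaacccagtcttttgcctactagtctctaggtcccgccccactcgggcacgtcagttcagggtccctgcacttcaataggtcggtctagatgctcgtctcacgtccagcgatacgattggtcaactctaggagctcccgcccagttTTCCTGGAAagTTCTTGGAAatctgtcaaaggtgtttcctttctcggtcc
The letters TTCNNNGAA, searched on both strands, occur in 9.55% of the 27025 genes' promoter windows of that length in 4 of the 19 STAT3-list genes with an entry (21.1%), in 4 of 19 interferon gamma and MHC class I genes (21.1%) and in 5 of 16 type I interferon genes (31.2%), so its share was not highest in the STAT3 list.

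Interferon-related genes in fibroblast-like cells did not move as a block. The interferon gamma and MHC class I list had 1 of 24 measured members higher and 1 lower (median -0.08). The member that was higher was Cxcl10, a T cell chemokine (287 CPM in anti-PD-1 and 735 CPM in combo, log2 ratio 1.36, interval 1.29 to 1.43), with 848 CPM in control and 650.0 CPM in anti-LIF, so anti-PD-1 was the low library. It fell under 2-fold as a mean over cells (0.93) and without sub-clusters of another class (0.53). Gbp4, an interferon-induced GTPase, was the lower one (-1.13; -0.68 as a mean over cells). Type I interferon genes had 2 of 20 measured members higher and 0 lower (median 0.27), namely Ifit1 (44.4 CPM in anti-PD-1 and 95.8 CPM in combo, 1.11), an RNA-binding antiviral protein, and Rsad2 (1.26), the antiviral enzyme viperin. Thinned to 1000 UMIs per cell these were 0.68 and -0.52. MHC class II genes had a median of -0.72 (-0.37 after thinning) with 0 of 7 measured members higher and 2 lower. H2-DMa, which loads peptide on class II, was 18.0 CPM in anti-PD-1 and 4.79 CPM in combo (-1.91), and Ciita, the class II transactivator, 4.49 CPM in anti-PD-1 and 1.92 CPM in combo (-1.23; -0.71 as a mean over cells). H2-Ab1 (440.0 CPM in anti-PD-1 and 296 CPM in combo, -0.57) and H2-Eb1 (-0.64), the beta chains of class II, stayed under 2-fold. Proliferation genes had 0 of 20 measured members higher and 0 lower.

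In endothelial-like cells few genes of quiescent capillaries passed 2-fold. The capillary list had 2 of 21 measured members higher and 0 lower and a median of 0.48, against -0.01 over the 8468 genes measured, 193 of which (2.28%) were higher and 215 (2.54%) lower. Timp4, a metalloproteinase inhibitor, was 12.6 CPM in anti-PD-1 and 63.9 CPM in combo (log2 ratio 2.31, interval 1.62 to 3.18), and 0 CPM in control and 12.04 CPM in anti-LIF. Gja5, the arterial gap junction protein connexin 40, was 6.28 CPM in anti-PD-1 and 20.5 CPM in combo (log2 ratio 1.63, interval 0.66 to 2.96), but 0.14 after thinning to 1000 UMIs. Efnb2 (-0.03), the arterial ephrin, and Gpihbp1 (-0.00), which anchors lipoprotein lipase on capillaries, were level. The capillary list's median was 0.42 within capillary endothelial-like cells and 0.29 within venous endothelial-like cells. The angiogenic list had 0 of 25 measured members higher and 0 lower (median -0.10). Its lowest member Angpt2, which destabilises vessels, was 111 CPM in anti-PD-1 and 68.0 CPM in combo (-0.72) and its highest Nrp1, a VEGF co-receptor, was at 0.37. The leukocyte adhesion and venous list had 0 of 18 measured members higher and 0 lower (median 0.02). Selp, the P-selectin that captures rolling leukocytes, was 864 CPM in anti-PD-1 and 457 CPM in combo (log2 ratio -0.92, interval -1.03 to -0.81), just short of 2-fold, with 591 CPM in control and 619 CPM in anti-LIF.

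Proliferation genes leaned lower, with 0 of 20 measured members higher and 2 lower and a median of -0.59 (-0.32 as a mean over cells, -0.27 without the mixed sub-clusters). Rrm2, a ribonucleotide reductase subunit, was 62.8 CPM in anti-PD-1 and 23.5 CPM in combo (log2 ratio -1.42, interval -1.86 to -0.97) and Mcm6, of the replicative helicase, 100.5 CPM in anti-PD-1 and 46.8 CPM in combo (-1.104). As means over cells these were -0.95 and -0.55, under 2-fold. Type I interferon genes had 3 of 18 measured members higher and 0 lower (median 0.16), namely Ifit1 (84.0 CPM in anti-PD-1 and 183 CPM in combo, 1.11), Ifit3 (1.21), another protein of that antiviral family, and Cmpk2 (1.19), a mitochondrial nucleotide kinase. As means over cells they were 0.38, -0.02 and 0.67. H2-DMa was the MHC class II gene past 2-fold (-1.72; 0 of 6 measured members higher and 1 lower), and -0.99 after thinning. The interferon gamma list (0 of 24 measured members higher and 0 lower) and the STAT3 list (0 of 20 measured members higher and 0 lower) held no such gene. In the STAT3 list Socs3 was 684 CPM in anti-PD-1 and 1018 CPM in combo (0.57) and Osmr, the oncostatin M receptor, was at 0.69.

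The 12 highest genes of the class were Cubn, Eps8l2, Atp1b2, Timp4, Fmo2, Adh1, Arc, Selenom, Steap4, Sult1a1, Rasl11a and Fas. Fmo2, a flavin monooxygenase, was 26.7 CPM in anti-PD-1 and 99.5 CPM in combo (log2 ratio 1.88, interval 1.39 to 2.45) and 13.5 CPM in control and 71.8 CPM in anti-LIF, and Atp1b2, a sodium pump subunit, 9.42 CPM in anti-PD-1 and 52.9 CPM in combo (log2 ratio 2.43, interval 1.65 to 3.47) and 11.1 CPM in control and 37.0 CPM in anti-LIF. Both were thus higher with anti-LIF in each pair. Fas, the death receptor, was 10.2 CPM in anti-PD-1 and 34.8 CPM in combo (1.72). Cubn, a receptor for intrinsic factor, had no UMI in the anti-PD-1 class and was at least 10.7-fold higher in combo, but it was also present in control (24.6 CPM in control and 0.430 CPM in anti-LIF). The 12 lowest were Cct7, Dda1, AA467197, Ppp1ca, Hnrnpul2, Eif3d, Psmb5, Nt5e, Arhgdia, Fam167b, Bsg and Slco2a1, of which the last 4 differed less than 2-fold. Nt5e, the ectoenzyme CD73 that makes adenosine, was 84.8 CPM in anti-PD-1 and 40.7 CPM in combo (log2 ratio -1.06, interval -1.42 to -0.69) and 134 CPM in control and 36.6 CPM in anti-LIF. Slco2a1, a prostaglandin carrier, was 449 CPM in anti-PD-1 and 271 CPM in combo (log2 ratio -0.73, interval -0.88 to -0.58) with 493 CPM in control and 267 CPM in anti-LIF, the same order in both pairs.

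Genes of other cells moved along with these values, and their part in them was not tested. In endothelial-like cells the summed fibroblast markers were 1554 CPM in anti-PD-1 and 3215 CPM in combo (5 of 8 higher), the pericyte markers 1109 CPM in anti-PD-1 and 1963 CPM in combo (4 of 9 higher) and the macrophage markers 1156 CPM in anti-PD-1 and 424 CPM in combo (9 of 10 lower). Gland epithelium markers stood at 5.50 CPM in anti-PD-1 and 993 CPM in combo, and haemoglobin at 783 CPM in anti-PD-1 and 48.6 CPM in combo, with 4 of 4 lower. Without the pericyte-like and the other mixed sub-clusters 267 of 475 and 555 of 1297 cells were left, and Adh1 turned to -0.83, while Sult1a1 (0.58), Rasl11a (0.88), Nt5e (-0.65) and Hnrnpul2 (-0.85) fell under 2-fold. Fmo2 (1.11), Timp4 (2.11) and Atp1b2 (1.04) stayed past it.

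In macrophage and monocyte-like cells, many genes of alternative activation, the programme of tissue repair and type 2 immunity, were higher in combo. The list's median was 1.004, with 11 of 22 measured members higher and 0 lower; the median over the 11115 genes measured was -0.01, and 335 of them (3.01%) were higher and 198 (1.78%) lower. Retnla, a secreted protein induced by interleukin-4, was 298 CPM in anti-PD-1 and 4153 CPM in combo (log2 ratio 3.80, interval 3.75 to 3.85), with 579 CPM in control and 3346 CPM in anti-LIF. Clec10a and Mgl2, the galactose-type lectins, were 69.9 CPM in anti-PD-1 and 337 CPM in combo (2.27) and 69.7 CPM in anti-PD-1 and 283 CPM in combo (2.02). Lyve1, a hyaluronan receptor of perivascular macrophages, was 55.6 CPM in anti-PD-1 and 286 CPM in combo (2.36), and Cd163, the haemoglobin scavenger, 30.01 CPM in anti-PD-1 and 118 CPM in combo (1.97). All of these had the same order in the pair without anti-PD-1, where Lyve1 had no UMI in control and 167 CPM in anti-LIF. The list's median there was 2.40. Cd209d (2.75), Cd209f (2.06), Ccl24 (1.35), Cbr2 (1.25), Gas6 (1.22) and Folr2 (1.11) were the other members past 2-fold. The lowest members were Vcan, a proteoglycan of monocytes (-0.77), and Stab1, a scavenger receptor (-0.18). Within sub-clusters the list's median was 0.80 in the one led by Cxcl9 and Xcr1, 0.57 in resident macrophage-like cells, 1.22 in dividing cells, 0.22 in monocyte-like cells and -0.26 in the one led by Mmp12 and Gpnmb. Retnla, Ear2 and Mgl2 were at least 2-fold higher in 7, 5 and 6 of the 8 classes; whether free RNA from macrophages carries them there was not tested. Left out with the other genes of that kind, they leave a list median of 0.82.

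Lipid-associated genes, which mark macrophages that take up and store lipid, had 5 of 18 measured members higher and 0 lower (median 0.36). Lpl, lipoprotein lipase, was 98.0 CPM in anti-PD-1 and 512 CPM in combo (log2 ratio 2.39, interval 2.30 to 2.47), Cd36, a fatty acid receptor, 132 CPM in anti-PD-1 and 513 CPM in combo (1.95), and Mmp12 78.2 CPM in anti-PD-1 and 435 CPM in combo (log2 ratio 2.48, interval 2.38 to 2.57). Fabp4 (1.64), a fatty acid carrier, and Gpnmb (1.52), a lysosomal glycoprotein, were the others. Spp1, the matrix cytokine osteopontin, did not follow them at 1154 CPM in anti-PD-1 and 844 CPM in combo (log2 ratio -0.45, interval -0.48 to -0.42). Among myeloid chemokines and growth factors, 5 of 23 measured members were higher and 2 lower. Ccl6 (1001 CPM in anti-PD-1 and 2609 CPM in combo, 1.38), Ccl9 (881 CPM in anti-PD-1 and 1848 CPM in combo, 1.07), Ccl17 (2.44) and Ccl24 attract monocytes, T cells or eosinophils, and Igf1 is a growth factor (77.5 CPM in anti-PD-1 and 214 CPM in combo, 1.47). The cells of the eosinophil-led cluster 23, which stayed unnamed, were 36 in anti-PD-1 and 315 in combo.

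A smaller number of genes of classical, interferon-driven activation were lower, and most such genes were not past 2-fold. The inflammatory list had 1 of 18 measured members higher and 4 lower (median -0.32) and the interferon gamma and MHC class I list 0 of 24 measured members higher and 3 lower (-0.40; -0.95 in anti-LIF over control). Cxcl9, the interferon gamma-induced T cell chemokine, was 794 CPM in anti-PD-1 and 249.7 CPM in combo (log2 ratio -1.67, interval -1.72 to -1.62), with 1317 CPM in control and 272 CPM in anti-LIF. Nos2, inducible nitric oxide synthase, was 11.3 CPM in anti-PD-1 and 2.48 CPM in combo (-2.18), Acod1, which makes itaconate, 42.8 CPM in anti-PD-1 and 16.3 CPM in combo (-1.39), and Ccl5, a T cell chemokine, 227 CPM in anti-PD-1 and 102 CPM in combo (-1.15; -0.94 after thinning). Gbp4 (-1.14) and Iigp1 (-1.01), interferon-induced GTPases, completed the interferon gamma list's lower members; Iigp1 lay at the 2-fold line and was -0.95 with at most 10% mitochondrial UMIs. H2-D1, an MHC class I heavy chain, was level at 0.00, and the MHC class II list had 0 of 7 measured members higher and 0 lower. Il6 was the inflammatory gene that was higher (5.57 CPM in anti-PD-1 and 18.3 CPM in combo, 1.71), and Cxcl2, a neutrophil chemokine, was 2144 CPM in anti-PD-1 and 3395 CPM in combo (0.66). In the sub-cluster led by Cxcl9 and Xcr1 alone Cxcl9 was 1980.0 and 1607 CPM, -0.30, a smaller difference than over the class, and that sub-cluster had the smaller combo share given above. The C1q and phagocytic list (0 of 16 measured members higher and 0 lower) and the type I interferon list (0 of 20 measured members higher and 0 lower) held no gene past 2-fold, and the monocyte list had 0 of 14 measured members higher and 1 lower.

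The 12 highest genes of the class by interval bound were BC037156, Dnase1, Retnla, Cst10, Cubn, Tenm4, Kcnq1, Lyz1, Ear2, Cd209d, Aldh1a2 and Lpl. BC037156, Dnase1 and Cst10 had no UMI in anti-PD-1 and are genes of the salivary cluster. The gland epithelium markers, which include the salivary gene Bpifa2, summed to 6.11 CPM in anti-PD-1 and 210.0 CPM in combo here. Ear2, an eosinophil-type ribonuclease, was 78.0 CPM in anti-PD-1 and 465 CPM in combo (log2 ratio 2.58, interval 2.48 to 2.67) and 31.7 CPM in control and 422 CPM in anti-LIF. Lyz1, a lysozyme, was 38.6 CPM in anti-PD-1 and 247 CPM in combo (2.67) and Aldh1a2, which makes retinoic acid, 8.55 CPM in anti-PD-1 and 51.6 CPM in combo (log2 ratio 2.59, interval 2.31 to 2.89). The 12 lowest were Kcnj10, Cd72, Tnfsf13b, Chst1, Tmem119, Tlr12, Dach1, F11r, Lilra5, Tgfb3, Cxcl9 and Gal3st4. Cd72, an inhibitory lectin, was 203 CPM in anti-PD-1 and 39.1 CPM in combo (log2 ratio -2.38, interval -2.49 to -2.26) and 202 CPM in control and 69.4 CPM in anti-LIF. Tnfsf13b, the B cell survival factor BAFF, was 46.1 CPM in anti-PD-1 and 8.45 CPM in combo (log2 ratio -2.45, interval -2.70 to -2.20) and 93.8 CPM in control and 9.75 CPM in anti-LIF. F11r, a junctional adhesion molecule, was 130.0 CPM in anti-PD-1 and 34.0 CPM in combo (-1.93), and Tgfb3, a TGF-beta ligand, 47.1 CPM in anti-PD-1 and 13.1 CPM in combo (-1.84). For each of these 4 genes the combo library was below anti-PD-1 and the anti-LIF library below control. Tmem119, a transmembrane protein of microglia and some macrophages, was 137 CPM in anti-PD-1 and 34.9 CPM in combo (-1.97) with 53.4 CPM in control and 72.9 CPM in anti-LIF, where anti-PD-1 alone was high. The class's own markers were 14464 CPM in anti-PD-1 and 14480.0 CPM in combo with 0 of 10 past 2-fold, and its median UMIs per cell were 1799 and 3159.5.

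**Figure D3:**
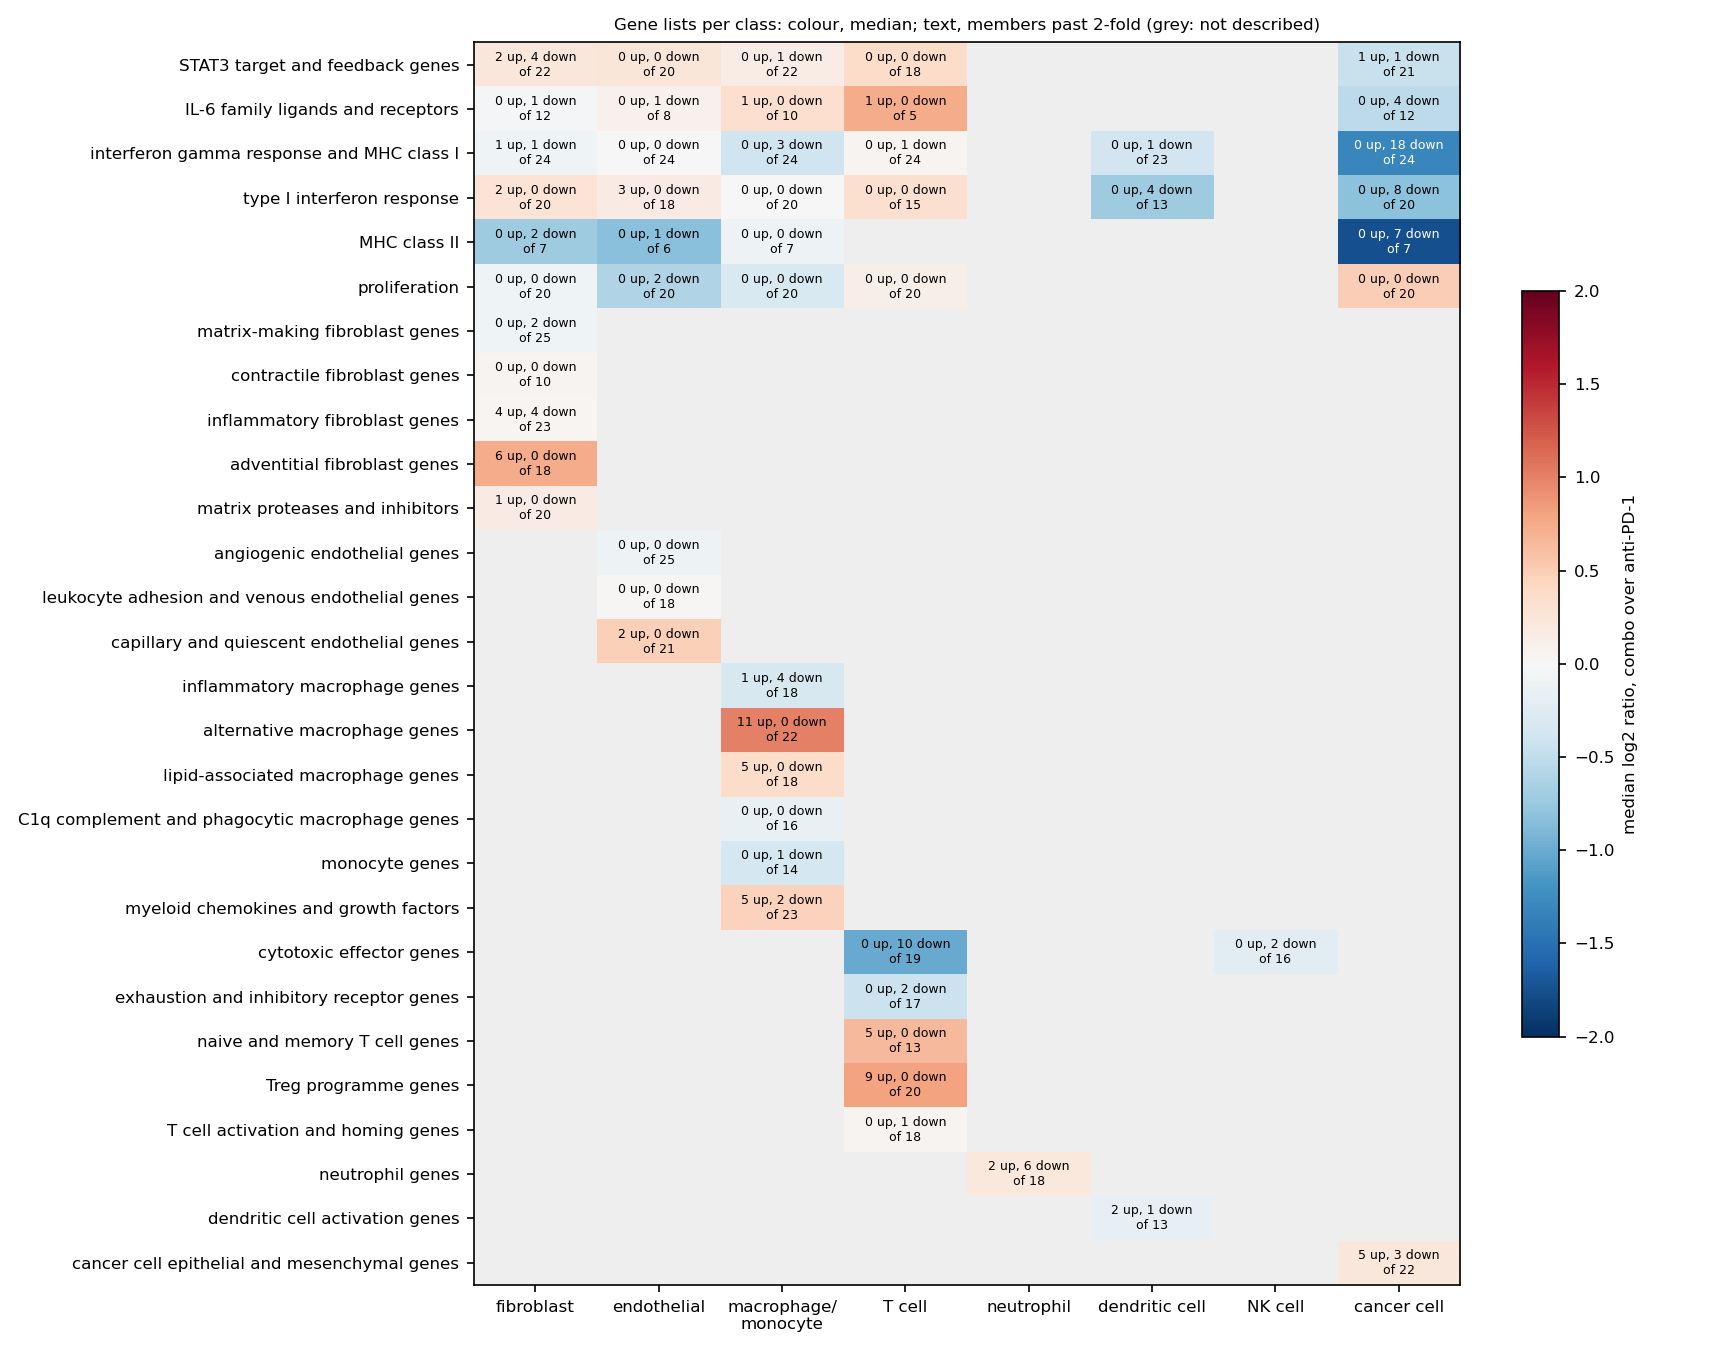
Median log2 ratio (combo over anti-PD-1, colour) of each gene list in each class, with the number of measured members at least 2-fold higher (up) or lower (down); grey marks lists not described in a class. The darkest fields are MHC class II and interferon gamma genes in cancer cell-like cells (-1.75 and -1.30), and alternative macrophage genes (1.004) and cytotoxic genes of T cell-like cells (-1.01) stand out among host cells.

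In T cell-like cells, many cytotoxic genes were lower in combo while some Treg and naive or memory genes were higher. Of the cytotoxic effector list, 10 of 19 measured members were lower and 0 higher (median -1.01), against a level median over the 7977 genes measured, of which 136 (1.70%) were higher and 151 (1.89%) lower. Prf1, the pore-forming perforin, was 308 CPM in anti-PD-1 and 88.7 CPM in combo (log2 ratio -1.79, interval -2.01 to -1.58), with 205 CPM in control and 57.5 CPM in anti-LIF. Gzmb, a protease of cytotoxic granules, was 668 CPM in anti-PD-1 and 328 CPM in combo (log2 ratio -1.03, interval -1.15 to -0.91), and Ifng, the cytokine interferon gamma, 226 CPM in anti-PD-1 and 106 CPM in combo (log2 ratio -1.09, interval -1.30 to -0.88). Gzmb was lower in anti-LIF than in control as well, with 619.6 CPM in control and 261 CPM in anti-LIF. Ifng was nearer to level in that pair, with 209 CPM in control and 182 CPM in anti-LIF, under 2-fold. Ccl3 (221 CPM in anti-PD-1 and 42.5 CPM in combo, -2.37), Ccl4 (-1.65) and Xcl1 (-1.96), chemokines that activated T cells release, and Klrd1 (-1.01), part of an NK receptor, were lower too. Gzmc (211 CPM in anti-PD-1 and 12.02 CPM in combo, -4.11), Gzmf (-3.10) and Gzmd (-1.02), further granzymes, complete the 10. Gzmc had UMIs in 23 cells. The highest members were Tnf (0.54), the inflammatory cytokine, and Klrk1 (-0.24), the activating receptor NKG2D.

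The cytotoxic calls depended on where the class ended. With clusters drawn at resolution 0.5, Gzmc was 0.17, Gzmf -0.70, Prf1 -0.71, Gzmb -0.59, Ifng -0.86, Klrd1 -0.83 and Gzmd -0.31, none of them past 2-fold. Ccl3 (-1.35), Ccl4 (-1.24) and Xcl1 (-1.52) stayed past it. Cluster 11, led by Gzmf and Prf1, held 14.1% and 4.66% of the class and the Cd8 cluster 1 57.9% and 36.1%. Cluster 9, with Foxp3 as its first leading gene, held 21.4% and 51.1%. It had 372 and 777 cells, against 227 and 371 in the Treg-like sub-cluster, so it was not all Treg-like. Within the CD8 T cell-like sub-cluster led by Itga1 the cytotoxic list's median was -0.02, although Gzmb itself was 465 and 228 CPM, -1.02 there. NK cell markers in the T cell-like class summed to 571 CPM in anti-PD-1 and 255 CPM in combo.

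Treg programme genes had 9 of 20 measured members higher and 0 lower and a median of 0.81 (1.48 in anti-LIF over control). Foxp3, the transcription factor that defines Tregs, was 130.0 CPM in anti-PD-1 and 336 CPM in combo (log2 ratio 1.37, interval 1.19 to 1.55), and 64.9 CPM in control and 236 CPM in anti-LIF. Il1rl1, the interleukin-33 receptor of tissue Tregs and type 2 cells, was 46.4 CPM in anti-PD-1 and 194 CPM in combo (log2 ratio 2.06, interval 1.78 to 2.36), with 23.2 CPM in control and 157 CPM in anti-LIF. Ccr4, a homing receptor, was 3.02 CPM in anti-PD-1 and 18.4 CPM in combo (2.54), Klrg1, a receptor of terminally differentiated cells, 109 CPM in anti-PD-1 and 304 CPM in combo (1.48), and Il2ra, the high-affinity interleukin-2 receptor, 231 CPM in anti-PD-1 and 489.9 CPM in combo (1.08). Ebi3 (1.53), Gata3 (1.04), Il10 (1.02) and Ccr8 (1.01) were the other members past 2-fold. At resolution 0.5, Il2ra (0.95), Gata3 (0.95), Il10 (0.83) and Ccr8 (0.99) lay under it, as did Klrg1 (0.94) and Ebi3 (0.91) as means over cells. Tnfrsf18, the co-stimulatory receptor GITR, was 154 CPM in anti-PD-1 and 106 CPM in combo (-0.54), and Ctla4, an inhibitory receptor rich in Tregs, 1051 CPM in anti-PD-1 and 1387 CPM in combo (0.40). Within Treg-like cells the list's median was -0.04 and Foxp3 was 893 and 972 CPM, 0.12, while Treg-like cells made up more of the class. Il1rl1 was 258 and 485 CPM, 0.90 within them.

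Naive and memory genes had 5 of 13 measured members higher and 0 lower (median 0.65; 1.03 after thinning). Tcf7, the transcription factor of stem-like and naive T cells, was 87.4 CPM in anti-PD-1 and 234 CPM in combo (log2 ratio 1.42, interval 1.20 to 1.64; 0.96 at resolution 2). S1pr1, the receptor for exit from tissue into blood and lymph, was 103 CPM in anti-PD-1 and 320.1 CPM in combo (log2 ratio 1.64, interval 1.44 to 1.84). Il7r, the interleukin-7 receptor, was 201 CPM in anti-PD-1 and 435 CPM in combo (1.12), and Slamf6, a receptor of stem-like CD8 cells, 19.6 CPM in anti-PD-1 and 60.5 CPM in combo (1.62). At resolution 0.5 Il7r was 0.87. These 4 genes were also higher in anti-LIF than in control, S1pr1 with 92.4 CPM in control and 278 CPM in anti-LIF and Tcf7 with 110.5 CPM in control and 228 CPM in anti-LIF. Exhaustion and inhibitory receptor genes had 0 of 17 measured members higher and 2 lower (median -0.44). These were Havcr2, the inhibitory receptor TIM-3 (101 CPM in anti-PD-1 and 36.8 CPM in combo, log2 ratio -1.46, interval -1.81 to -1.12), and Cd244a, the receptor 2B4 (26.0 CPM in anti-PD-1 and 6.39 CPM in combo, -1.99). Pdcd1, the target of the antibody that both groups had, was 370.1 CPM in anti-PD-1 and 238 CPM in combo (log2 ratio -0.64, interval -0.78 to -0.49), and 164 CPM in control and 195 CPM in anti-LIF. Activation and homing genes had 0 of 18 measured members higher and 1 lower, namely Itga1 (138 CPM in anti-PD-1 and 51.8 CPM in combo, -1.41), the collagen-binding integrin of tissue-resident cells. Tbx21, the transcription factor T-bet, was 109 CPM in anti-PD-1 and 58.6 CPM in combo (-0.90) and Tnfrsf4, the co-stimulatory receptor OX40, 215 CPM in anti-PD-1 and 412 CPM in combo (0.94).

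By interval bound the 12 highest genes of T cell-like cells were Smr3a, Chia1, Ramp3, S1pr1, Socs2, Klrg1, Tcf7, Foxp3, Slamf6, Dgat2, Ebi3 and Maf, and the 12 lowest Cct7, Gldc, Hist1h1c, Cd244a, Adgrg1, Itga1, Havcr2, Psmd13, Hist1h2bc, Nrgn, Irf8 and Drg2. Smr3a and Chia1 had no UMI in anti-PD-1 and lead the salivary cluster. The gland epithelium markers summed to 15.1 CPM in anti-PD-1 and 390.3 CPM in combo. Ramp3, a receptor-modifying protein, was 78.8 CPM in anti-PD-1 and 260.0 CPM in combo (log2 ratio 1.72, interval 1.497 to 1.95), Socs2, a cytokine feedback inhibitor, 38.4 CPM in anti-PD-1 and 119.8 CPM in combo (1.64), and Maf, a transcription factor of Tregs and T follicular helper cells, 141 CPM in anti-PD-1 and 344 CPM in combo (1.29). Irf8, a transcription factor of effector CD8 cells and myeloid cells, was 211 CPM in anti-PD-1 and 86.4 CPM in combo (-1.28) but -0.01 at resolution 0.5, and Nrgn, a calmodulin-binding protein, 159 CPM in anti-PD-1 and 63.5 CPM in combo (-1.32) but -0.21. Adgrg1, an adhesion receptor of cytotoxic cells, was 74.6 CPM in anti-PD-1 and 24.8 CPM in combo (-1.58). Haemoglobin summed to 322 CPM in anti-PD-1 and 2.63 CPM in combo, although a sub-cluster led by haemoglobin genes over all 4 libraries had the larger combo share.

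**Figure D4:**
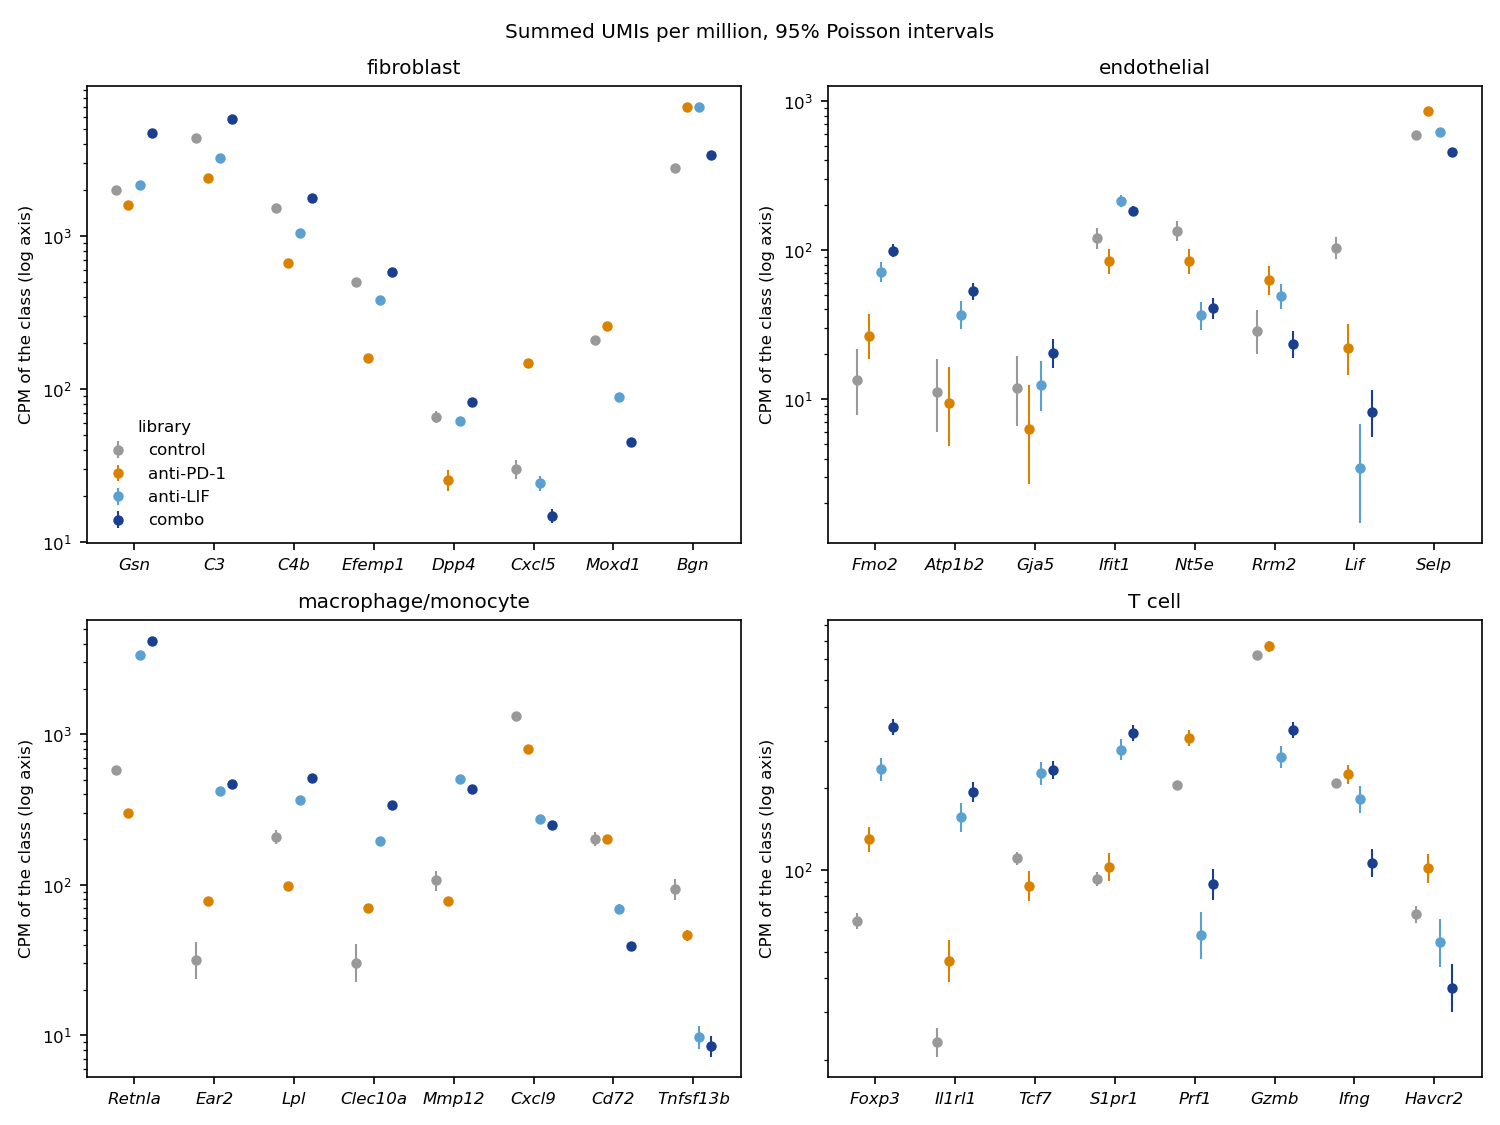
CPM of 8 genes in each of 4 classes (log axis) for the 4 libraries, with 95% Poisson intervals. In macrophage and monocyte-like cells Retnla lies at 298 CPM in anti-PD-1 and 4153 in combo and Cxcl9 at 794 and 249.7 CPM, and in T cell-like cells Foxp3 lies at 130.0 and 336 CPM and Prf1 at 308 and 88.7 CPM.

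In neutrophil-like cells (746 and 349) some granule genes were lower in combo, and the class was drawn in unequal parts from its 2 clusters. Of the neutrophil list 2 of 18 measured members were higher and 6 lower (median 0.22), beside 195 (3.75%) and 324 (6.22%) of the 5205 genes measured. Mmp8, a granule collagenase, was 699.9 CPM in anti-PD-1 and 118 CPM in combo (log2 ratio -2.56, interval -2.96 to -2.21), and Retnlg, a resistin-like protein, 1996 CPM in anti-PD-1 and 339 CPM in combo (log2 ratio -2.55, interval -2.78 to -2.34). Ltf (-1.44), Ngp (-1.29), Lcn2 (-1.22) and S100a9 (-1.08) were the other lower members, all of granules or cytosol. Ly6g, the surface marker of mature mouse neutrophils, was 189.8 CPM in anti-PD-1 and 18.4 CPM in combo (log2 ratio -3.30, interval -4.44 to -2.47), but 1.19 CPM in control and 121 CPM in anti-LIF, so control and combo were low and the other libraries high. Cd177 (-2.39), Ifitm6 (-2.20) and Fosl1 (-2.23) were also among the 6 lowest. Cluster 32, led by the precursor genes Ngp, Camp and Ltf, held 192 of the anti-PD-1 cells (25.7%) and 13 of the combo cells (3.72%), and the part of this in the lower genes was not tested. Higher were Nlrp3, the inflammasome sensor (1.53), and Il1r2, a decoy receptor (1.01; 0.59 as a mean over cells). The 6 highest genes were Smr3a, Icam1, Ccl3, Dusp2, Gadd45b and Marcksl1. Ccl3 was 587 CPM in anti-PD-1 and 2267 CPM in combo (log2 ratio 1.95, interval 1.83 to 2.07) and Icam1 140.1 CPM in anti-PD-1 and 602 CPM in combo (log2 ratio 2.10, interval 1.86 to 2.35), where anti-PD-1 was the lowest library for both (Ccl3 2837 CPM in control and 2082 CPM in anti-LIF, Icam1 306 CPM in control and 380.4 CPM in anti-LIF). Immediate early and heat shock genes, which dissociation induces, had 5 of 18 measured members higher and 0 lower, and their part was not tested.

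In dendritic cell-like cells (297 and 406) a few interferon-induced genes were lower in combo. Of type I interferon genes 0 of 13 measured members were higher and 4 lower (median -0.71; -0.33 as a mean over cells), beside 74 (1.31%) and 96 (1.70%) of 5662 genes. These were Rsad2 (-1.54), Irf7 (-1.40), Isg20 (-1.28) and Oas2 (-1.001). As means over cells they were -0.50, -0.87, -0.96 and -0.85, all under 2-fold, and Irf7 thinned to 1000 UMIs was 0.40. Iigp1 was the interferon gamma member that was lower (106 CPM in anti-PD-1 and 16.5 CPM in combo, log2 ratio -2.66, interval -3.32 to -2.08), with 42.5 CPM in control and 8.22 CPM in anti-LIF. The activation list had 2 of 13 measured members higher and 1 lower: Ccl17, a chemokine for Ccr4-bearing T cells (111 CPM in anti-PD-1 and 313 CPM in combo, log2 ratio 1.48, interval 1.20 to 1.79), and Socs2 (1.24; 0.31 at resolution 0.5) on the higher side. Il12b, the shared chain of the interleukin-12 and interleukin-23 heterodimers, was lower (53.3 CPM in anti-PD-1 and 7.39 CPM in combo, -2.81) with UMIs in 4 cells. Cluster 27, led by Ccr7, Fscn1 and Il12b, stayed outside the class and held 61 and 148 cells. The 6 highest genes were Mgl2 (457 CPM in anti-PD-1 and 1082 CPM in combo, log2 ratio 1.24, interval 1.097 to 1.39), Fgfr1, Ccl9 (1.24), Trf, Clec10a (0.92) and Tbxas1, and Mgl2, Clec10a and Ccl9 were higher in macrophage and monocyte-like cells too. The 6 lowest were Cct7, Abr, H2-DMa (531 CPM in anti-PD-1 and 250.03 CPM in combo, -1.09), Ppp1ca, Gtf2b and Rgs1.

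NK cell-like cells were few (158 and 159) and gave little to compare. Of 1683 genes with enough UMIs, 19 (1.13%) were higher and 18 (1.07%) lower. Of the cytotoxic list 0 of 16 measured members were higher and 2 lower. Gzmc was 2143 CPM in anti-PD-1 and 183 CPM in combo (-3.54) with its UMIs in 19 cells, and Gzmf was 250.4 CPM in anti-PD-1, in 3 cells, without a UMI in combo. Prf1 was 632 CPM in anti-PD-1 and 773 CPM in combo (log2 ratio 0.29, interval -0.02 to 0.60). The 12 genes chosen by interval bound (Bcl2l11, Kmt2e, Actb, Irf8, Sidt2 and Sqstm1 higher, Oaz1, Cd52, Adgre5, Ubb, B2m and Tnfaip3 lower) all differed less than 2-fold.

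Cancer cell-like cells of the combo library had lower levels of most antigen presentation and interferon gamma response genes. Of the interferon gamma and MHC class I list, 18 of 24 measured members were lower and 0 higher (median -1.30), beside 464 (3.97%) lower and 173 (1.48%) higher of 11681 genes with a median of 0.00. H2-K1, a classical MHC class I heavy chain, was 2035 CPM in anti-PD-1 and 871 CPM in combo (log2 ratio -1.22, interval -1.24 to -1.20), and B2m, the light chain of class I, 4604 CPM in anti-PD-1 and 1988 CPM in combo (log2 ratio -1.21, interval -1.23 to -1.20). Irgm1 (175 CPM in anti-PD-1 and 42.6 CPM in combo, log2 ratio -2.04, interval -2.13 to -1.95), Igtp (198 CPM in anti-PD-1 and 53.6 CPM in combo, -1.88) and Gbp2 (542 CPM in anti-PD-1 and 159 CPM in combo, -1.77) are interferon-induced GTPases of cell-autonomous defence. Psmb8 (-1.998) and Psmb9 (-1.97), subunits of the immunoproteasome, Tap1 (-1.495), the peptide transporter, Irf1 (-1.23), a transcription factor of the response, and Nlrc5 (-1.04), the class I transactivator, were lower as well. The chemokines Cxcl9 (107 CPM in anti-PD-1 and 39.3 CPM in combo, -1.44) and Cxcl10 (233 CPM in anti-PD-1 and 82.8 CPM in combo, -1.49) were in the same group. Cd274, which encodes PD-L1, was 40.3 CPM in anti-PD-1 and 10.2 CPM in combo (log2 ratio -1.98, interval -2.17 to -1.80), with 92.0 CPM in control and 11.1 CPM in anti-LIF. Psme1 (-0.29) and Psme2 (-0.09), the proteasome activators, were nearest to level.

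MHC class II genes were lower in all 7 measured members (median -1.75). H2-Ab1 was 453 CPM in anti-PD-1 and 134 CPM in combo (log2 ratio -1.75, interval -1.81 to -1.70), H2-Aa, the alpha chain, 425 CPM in anti-PD-1 and 122 CPM in combo (-1.80), and Cd74, the invariant chain, 203 CPM in anti-PD-1 and 60.5 CPM in combo (-1.75). Ciita was at -1.53 and H2-DMa at -2.95. Of the type I interferon genes 0 of 20 measured members were higher and 8 lower (median -0.82; -1.49 with at most 10% mitochondrial UMIs), among them Isg15, a ubiquitin-like modifier (-1.39; -0.84 as a mean over cells), Rtp4 (-1.40) and Zbp1, a nucleic acid sensor (-1.32), while Ifitm3, a membrane restriction factor, was at 0.23. These lists had the same direction in anti-LIF over control, with medians of -1.61 for interferon gamma and MHC class I, -2.95 for MHC class II and -1.12 for type I interferon. For H2-K1 the order over libraries was 3534 CPM in control and 989 CPM in anti-LIF, and anti-PD-1 lay between them. Inside clusters 0, 2, 4 and 12 of the class the interferon gamma list's median was -1.11, -0.93, -0.69 and -1.16, and that of MHC class II -1.13, -1.62, -0.57 and -1.49. The clusters themselves held 42.0% and 49.0% (cluster 0), 31.8% and 23.5% (cluster 2), 19.0% and 6.53% (cluster 4) and 7.13% and 20.9% (cluster 12) of the class in anti-PD-1 and combo. Macrophage markers in the class were 99.005 CPM in anti-PD-1 and 80.9 CPM in combo, with 0 of 10 past 2-fold, and fibroblast markers 3522 CPM in anti-PD-1 and 1619 CPM in combo with 4 of 9 lower.

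**Figure D5:**
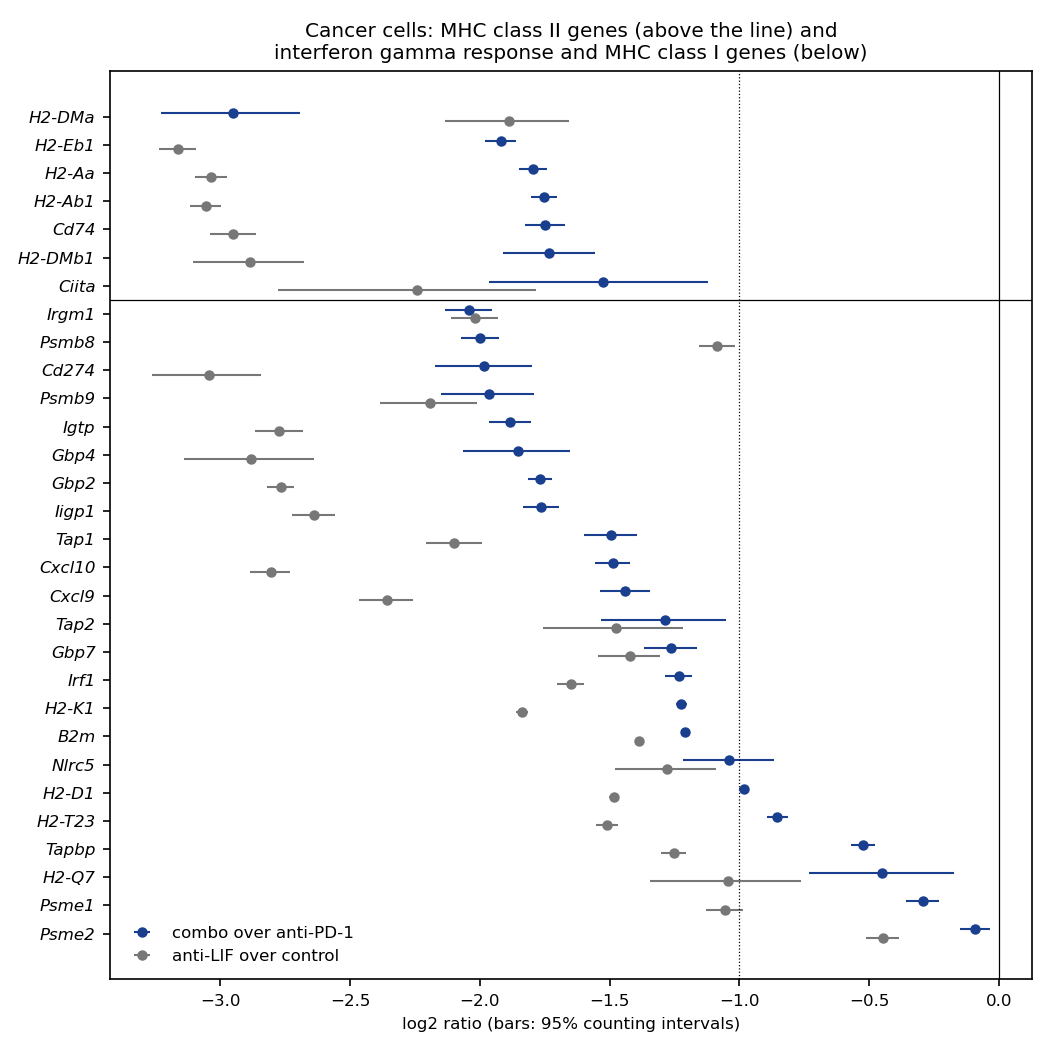
Log2 ratios of MHC class II genes (above the line) and of interferon gamma and MHC class I genes (below it) in cancer cell-like cells, combo over anti-PD-1 and anti-LIF over control, with 95% counting intervals. Of the 23 interferon gamma and MHC class I genes plotted 17 lie at or beyond -1 for combo over anti-PD-1, and all 7 MHC class II genes do.

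The promoter windows of 3 of these GTPase genes are printed because the genes moved together and hold a motif of the interferon-stimulated response element (ISRE) type, spelled GAAA, then 2 bases of any kind, then GAAA, which was searched on both strands and is shown in capitals. They run from 250 bases before to 50 after the transcription start on the transcript's strand (RefSeq, GRCm38.p6). Gbp2 lies at chr3:142620413-142620712, plus strand, with the motif on the opposite strand and its first printed base at -59. Irgm1 lies at chr11:48871371-48871670, minus strand, with overlapping matches that begin at -30 and -24. Igtp lies at chr11:58199306-58199605, plus strand, with a TTCNNNGAA match at -45 followed by the ISRE-type match at -34.
Gbp2: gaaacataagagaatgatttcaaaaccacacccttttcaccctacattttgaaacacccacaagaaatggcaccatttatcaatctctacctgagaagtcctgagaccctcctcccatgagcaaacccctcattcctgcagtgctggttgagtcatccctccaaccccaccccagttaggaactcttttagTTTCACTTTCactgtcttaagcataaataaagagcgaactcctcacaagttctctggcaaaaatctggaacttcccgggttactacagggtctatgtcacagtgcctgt
Irgm1: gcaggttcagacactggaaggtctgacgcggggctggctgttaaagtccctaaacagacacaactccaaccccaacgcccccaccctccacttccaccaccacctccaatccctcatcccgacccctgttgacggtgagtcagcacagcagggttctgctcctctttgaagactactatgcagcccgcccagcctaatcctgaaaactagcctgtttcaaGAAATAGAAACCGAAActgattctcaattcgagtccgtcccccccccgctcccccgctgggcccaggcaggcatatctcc
Igtp: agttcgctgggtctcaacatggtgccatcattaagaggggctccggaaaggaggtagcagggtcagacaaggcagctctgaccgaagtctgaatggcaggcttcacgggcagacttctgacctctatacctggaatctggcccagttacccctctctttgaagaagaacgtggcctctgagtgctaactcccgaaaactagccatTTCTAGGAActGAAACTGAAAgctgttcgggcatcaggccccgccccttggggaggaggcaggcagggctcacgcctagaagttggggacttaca
The ISRE-type letters occur in 8 of the 19 interferon gamma and MHC class I genes with an entry (42.1%), in 8 of 16 type I interferon genes (50.0%) and in 3.99% of the 27025 genes. The matches describe letters and not binding.

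Epithelial and lineage genes of cancer cell-like cells went both ways, with 5 of 22 measured members higher and 3 lower (median 0.23). Prl2c2, a proliferin hormone, was 36.1 CPM in anti-PD-1 and 297 CPM in combo (log2 ratio 3.04, interval 2.95 to 3.13), with 16.6 CPM in control and 509.5 CPM in anti-LIF, and its paralog Prl2c3 was at 2.65; reads of such near-identical genes may be split between them. Krt19, a ductal keratin, was 3.27 CPM in anti-PD-1 and 14.6 CPM in combo (2.15), Krt7, another, was at 1.22, and Msln, the surface protein mesothelin, at 1.04. Krt7 was 0.87 after thinning, and Msln 0.95 without the Xist rule for the class. Mgp, an inhibitor of calcification, was 593 CPM in anti-PD-1 and 122 CPM in combo (log2 ratio -2.28, interval -2.33 to -2.23; -0.79 without the Xist rule) and Ptn, the growth factor pleiotrophin, 286 CPM in anti-PD-1 and 67.5 CPM in combo (log2 ratio -2.08, interval -2.15 to -2.01). Mgp and Ptn are among the leading genes of cluster 4, which leaves the class without the Xist rule. Prl2c2 and Prl2c3 are among those of clusters 0 and 12. These clusters had unequal shares of the class, as given above, and their part in the ratios was not tested further. Proliferation genes had 0 of 20 measured members higher and 0 lower (median 0.48), with Birc5, the mitotic protein survivin, at 0.86 and Mki67 at 0.18. Inside clusters 0, 2, 4 and 12 that list's median was 0.27, -0.41, -0.46 and 0.01, so its sign was not the same throughout. The 6 highest genes of the class were Prl2c2, Ocln, Tppp3, Pcolce2, Nrcam and Rhox5. Nrcam was 0.79 and Rhox5 0.00 with at most 10% mitochondrial UMIs. The 6 lowest were Epha7, Hsd11b1, Ms4a4d, Dio2, Bmp5 and Urah. Hsd11b1, which regenerates active glucocorticoid, was 75.6 CPM in anti-PD-1 and 3.91 CPM in combo (log2 ratio -4.27, interval -4.56 to -4.00) and 87.8 CPM in control and 9.45 CPM in anti-LIF, the same order in both pairs, and Dio2, which activates thyroid hormone, 16.7 CPM in anti-PD-1 and 1.07 CPM in combo (log2 ratio -3.94, interval -4.53 to -3.44).

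The targeted cytokine's own transcript was lower in combo in several classes. In cancer cell-like cells Lif was 124 CPM in anti-PD-1 and 55.7 CPM in combo (log2 ratio -1.15, interval -1.24 to -1.07), and 218 CPM in control and 43.5 CPM in anti-LIF. In fibroblast-like cells it was 126 CPM in anti-PD-1 and 73.4 CPM in combo (log2 ratio -0.78, interval -0.90 to -0.65), under 2-fold, with 81.6 CPM in control and 77.9 CPM in anti-LIF, so the anti-PD-1 library was the high one. In endothelial-like cells it was 22.0 CPM in anti-PD-1 and 8.18 CPM in combo (log2 ratio -1.43, interval -2.20 to -0.64), but -0.45 without the mixed sub-clusters, and in neutrophil-like cells 44.6 CPM in anti-PD-1 and 20.3 CPM in combo (-1.08), but 0.41 when the 2 libraries were clustered alone. Macrophage and monocyte-like cells held 13.7 CPM in anti-PD-1 and 11.0 CPM in combo (log2 ratio -0.31, interval -0.60 to -0.02). In T cell-like cells Lif leaned the other way, 10.6 CPM in anti-PD-1 and 19.5 CPM in combo (log2 ratio 0.88, interval 0.20 to 1.61). That lean did not hold throughout, since the ratio ranged from -0.51 to 1.29 over the other processing settings.

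The receptor chains were steadier. Lifr was 21.6 CPM in anti-PD-1 and 27.2 CPM in combo in fibroblast-like cells (log2 ratio 0.32, interval 0.06 to 0.61), 41.3 CPM in anti-PD-1 and 56.2 CPM in combo in macrophage and monocyte-like cells (log2 ratio 0.44, interval 0.29 to 0.60) and at -0.04 in endothelial-like cells. It was 3.89 CPM in anti-PD-1 and 1.59 CPM in combo in cancer cell-like cells (log2 ratio -1.28, interval -1.81 to -0.79), a low level whose ratio was 0.12 after thinning. Il6st was 314 CPM in anti-PD-1 and 325 CPM in combo in fibroblast-like cells (log2 ratio 0.05, interval -0.02 to 0.12), and its ratio was 0.23 in endothelial-like, 0.43 in macrophage and monocyte-like, 0.74 in T cell-like and -0.19 in cancer cell-like cells. In cancer cell-like cells 4 of 12 IL-6 family ligands and receptors were lower, Lif and Lifr with Il6 (19.9 CPM in anti-PD-1 and 3.25 CPM in combo, -2.60; -0.59 without the Xist rule) and Osmr (27.7 CPM in anti-PD-1 and 11.1 CPM in combo, -1.32; -0.81). Clcf1, a further family cytokine, was the member lower in fibroblast-like cells (17.8 CPM in anti-PD-1 and 6.55 CPM in combo, -1.44; -0.88 as a mean over cells), and Il11ra1, the interleukin-11 receptor, was higher in T cell-like cells (1.47). STAT3 target and feedback genes had 1 of 21 measured members higher and 1 lower in cancer cell-like cells (median -0.45), 0 of 22 measured members higher and 1 lower in macrophage and monocyte-like cells (0.15) and 0 of 18 measured members higher and 0 lower in T cell-like cells (0.37; 0.11 at resolution 2). The antibody binds LIF protein and not its transcript, so Lif levels do not check the treatment.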

How the data were processed

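Single-cell RNA sequencing with the SeekOne MM 3' kit was analysed for 4 libraries, 1 per group, each of 3 combined samples. The deposited matrices hold raw UMI counts per gene and barcode, per the file headers, and the deposited lists that go with them give barcodes and gene identifiers with symbols. The submitters' processing notes name Seurat 4.0.3 and the build mm10, without a role; the aligner, counter and cell calling are not given in the sources used here. No column of a sample outside the 4 libraries was present (0 unmapped).

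A barcode was kept if it held 200 genes or more and no more than 20% mt- UMIs. Cells of all 4 libraries were clustered together (2000 variable genes, 30 principal components, 15 neighbours, Leiden resolution 1), and each of 4 main classes again (1500 genes, 20 components, resolution 0.6). A name needed a marker score of at least 0.8, a second score of at most 0.7 of it and 3 detected markers. Cancer cell-like clusters also needed Xist at or below 0.25 of the median cluster. Clusters led by eosinophil or salivary genes, and 3 sub-clusters whose leading genes went against their name, were left unnamed after their genes were seen. No doublet caller was run and no doublets were removed.

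For each class of a library the counts were pooled over its cells and expressed as CPM with exact Poisson intervals, shares with exact Clopper-Pearson intervals, and ratios with exact conditional intervals (confidence level 95%), which cover counting error only. Log2 ratios added 0.5 to each sum. The scripts were tested on simulated data. Named genes were the 12 highest and 12 lowest in the 4 main classes and 6 and 6 in the others, ranked by the interval bound nearest 0, among genes with at least 50 UMIs, 20 cells with a UMI, at most 30% of UMIs in the 10 highest cells and at least 0.1 of the highest class's CPM. List members past 2-fold, the 2 highest and 2 lowest of each list, and Lif, Lifr, Il6st, Pdcd1 and Cd274 were added. A few list members that entered the counts are not reported here by name. The comparison and the gene lists were chosen with earlier results of these data known, and 2 alternatives (sub-clusters of another class left out; genes past the fold in 5 or more classes left out) were chosen after seeing the data. Python 3.11.15, numpy 2.4.6, scipy 1.17.1, pandas 2.3.3, leidenalg 0.10.2, igraph 0.11.9 and matplotlib 3.10.9 were used.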

Additional observations from a re-analysis of the deposited data

Results flagged for a closer look

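Some values went one way in combo over anti-PD-1 and the other way in anti-LIF over control. None of these differences between the pairs was tested, since each rests on 1 library per group.

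The macrophage and monocyte-like share had a log2 ratio of -0.12 with anti-PD-1 and 3.48 without it. Type I interferon genes of dendritic cell-like cells had medians of -0.71 and 0.96.

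The genes of neutrophil-like cells that differed most between the pairs were Retnlg (-2.55 and 4.78), Mmp8 (-2.56 and 4.81), Cd177 (-2.39 and 6.89) and Ifitm6 (-2.2 and 5.72). Cluster 32 of that class, led by the precursor genes Ngp, Camp and Ltf, also went opposite ways in the 2 pairs. It held 192 cells in anti-PD-1 and 13 in combo, against 0 in control and 54 in anti-LIF. The part of cluster 32 in these ratios was not tested. Rhox5, a homeobox gene of the reproductive tract and many tumour lines, was higher with anti-LIF in cancer cell-like cells under anti-PD-1 and lower without it (1.5 and -3.31). H2-DMa in dendritic cell-like cells was at -1.09 and 1.81, Adgre5 in NK cell-like cells at -0.65 and 1.37, and Cpxm2 in fibroblast-like cells at -1.29 and 1.02.

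The rest were mainly widely expressed genes that were low in both the control and combo libraries. Cct7 had ratios of -1.67 and 2.17 in fibroblast-like, -1.7 and 2.04 in endothelial-like, -1.59 and 1.88 in T cell-like and -1.7 and 1.74 in dendritic cell-like cells. Ccdc107 (-1.94 and 1.42), Jmjd6 (-1.71 and 1.49), Men1 (-1.56 and 2.79) and Psmd13 (-1.47 and 1.77) did so in fibroblast-like cells, and Psmd13 also in T cell-like cells (-1.75 and 2.17). In endothelial-like cells these were Ppp1ca (-1.24 and 2.25), Hnrnpul2 (-1.18 and 1), Psmb5 (-1.15 and 1.64) and Arhgdia (-0.96 and 1.41), and in dendritic cell-like cells Ppp1ca (-1.2 and 2.64) and Abr (-1.44 and 1.01).

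Outside the named classes, cluster 35 with the salivary genes Amy1, Smr3a and Bpifa2 held 176 cells of the combo library and 0 of the others.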

How the results depend on the processing

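No paired analysis was possible because each group is 1 library, and for the same reason no replicate could be left out. Among genes counted as higher or lower, the direction of the ratio turned for 8. With at most 10% mt- UMIs Cfd in fibroblast-like cells was at 6.41. After thinning to 1000 UMIs Rsad2 in fibroblast-like cells was at -0.52. Irf7 in dendritic cell-like cells was then at 0.40 and Lifr in cancer cell-like cells at 0.12. Without sub-clusters of another class Adh1 in endothelial-like cells was at -0.83, and as a mean over cells Ifit3 there was at -0.022. At resolution 0.5 Gzmc in T cell-like cells was at 0.17. With the 2 libraries clustered alone Lif in neutrophil-like cells was at 0.41. Genes that differed less than 2-fold are outside this count. Some of them changed sign too, such as Lif in T cell-like cells, which reached -0.51. Of class shares, the T cell-like log2 ratio was -0.64 with at most 10% mt- UMIs, -0.28 with at least 500 genes, -0.25 at resolution 0.5 and -0.63 at resolution 2. The macrophage and monocyte-like one was -0.25 with at most 10% mt- UMIs, the neutrophil-like one -1.54 with at least 500 genes, and the cancer cell-like one -0.46 at resolution 2 and -0.51 without the Xist rule. Thinning, which leaves fewer UMIs, gave 172 higher and 104 lower genes in fibroblast-like cells, 110 and 63 in endothelial-like cells, 80 and 79 in T cell-like cells and 129 higher in macrophage and monocyte-like cells. Without the minimum of 50 UMIs, which lets more genes in, 466 were lower in fibroblast-like cells, 313 higher and 521 lower in endothelial-like cells, 561 and 349 in macrophage and monocyte-like cells and 354 and 341 in T cell-like cells. Without sub-clusters of another class 204 were higher and 162 lower in fibroblast-like cells and 95 and 105 in endothelial-like cells, where fewer cells were left, and at resolution 2 the T cell-like class had 262 lower genes. The causes of the other moves were not tested. Of gene ratios, 2495 values stayed within the counting interval's width and 451 moved outside it, besides the 8 that turned. Of those that stayed, 276 came from leaving out the Xist rule and 305 from subtracting the class median. Leaving out that rule changed only the names of clusters 4 and 21, so most classes kept their ratios by construction. The class medians lay between -0.06 and 0.03. The count of values that stayed is therefore no measure of how robust the ratios are. Of list medians 569 stayed and 65 moved, and those same settings gave 51 and 53 of the ones that stayed. Of sub-cluster shares 105 stayed and 3 moved. Sub-cluster shares were recomputed only with at most 10% mt- UMIs and with at least 500 genes, so they were not checked against other clusterings. Counting intervals leave out the spread between mice, which these libraries cannot show.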

Other observations

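Some smaller populations also had unequal shares. Skeletal muscle-like cells were 0.695% of the anti-PD-1 library and 1.26% of the combo library (100 and 206 cells), and gland epithelium-like cells 0.577% and 1.30% (83 and 213). Cluster 23, led by the eosinophil genes Alox15, Prg2, Ccr3 and Siglecf, held 36 and 315 cells. The share ratios of mast cell or basophil-like (log2 ratio 0.31, interval -0.03 to 0.65), B cell-like (0.02, -0.40 to 0.45) and plasma cell-like cells (-0.46, -1.60 to 0.64) had intervals that include 0. Erythroid-like cells were 32 and 3 after erythrocyte removal. Cluster 33, led by the bone-resorbing cell genes Ctsk, Acp5 and Mmp9, went the other way with 149 and 38 cells.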
